A study of Homo sapiens with 4 samples.

Results

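Small nucleolar RNA (snoRNA) host genes were followed in SKOV3, a human ovarian cancer cell line, given the ginseng saponin 20(S)-Rg3. The members were 10 host genes whose main transcript codes for no protein, GAS5, SNHG1, SNHG3, SNHG5, SNHG6, SNHG7, SNHG8, SNHG12, SNHG15 and SNHG16, found by gene symbol among the 40205 genes of the count table. The Rg3 group held 2 libraries of SKOV3 cells given 80 µg/mL for 24 h, and the control group held 2 libraries of SKOV3 cells labelled as control, with no vehicle named. RPMI medium and 10% serum were common to both groups. The labels call each RNA sample pooled and name no separate cultures, so the p-values reflect library-to-library spread that may be purely technical.

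A host gene of this kind is transcribed into a precursor whose introns carry snoRNAs. Splicing releases the introns, which are trimmed to snoRNAs that guide chemical modification or processing of ribosomal and other structural RNA, while the joined exons become the long non-coding host RNA. Box C/D snoRNAs guide ribose methylation and box H/ACA snoRNAs guide pseudouridylation. Many host transcripts begin, like the mRNAs of ribosomal proteins, with a run of pyrimidines that ties their translation to growth signalling, and GAS5 is the classic case of a host RNA that is degraded by nonsense-mediated decay while ribosomes read it and builds up when growth stops.

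The starts of 6 host genes are shown to let the first bases and promoter letters of different members be compared. RefSeq start regions (build GRCh38.p14) were used for 8 of the 10 members. SNHG15 had no entry, and SNHG6 was left out of this comparison. Each line runs 5′ to 3′ over 80 bases, and the annotated first base of the transcript is base 51. Capitals mark the letters TATAA where they begin 40 to 20 bases upstream of the start, and the unbroken run of C or T that opens the transcript.
SNHG5: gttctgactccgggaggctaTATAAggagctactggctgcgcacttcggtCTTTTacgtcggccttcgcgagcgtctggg
SNHG7: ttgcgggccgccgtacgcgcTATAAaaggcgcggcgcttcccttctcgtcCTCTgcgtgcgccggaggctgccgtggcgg
SNHG8: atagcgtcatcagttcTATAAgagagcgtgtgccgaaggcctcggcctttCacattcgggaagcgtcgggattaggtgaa
SNHG12: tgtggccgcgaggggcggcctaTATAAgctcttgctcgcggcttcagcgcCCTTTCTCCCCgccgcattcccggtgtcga
SNHG1: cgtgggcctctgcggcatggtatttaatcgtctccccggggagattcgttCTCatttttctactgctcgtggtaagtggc
GAS5: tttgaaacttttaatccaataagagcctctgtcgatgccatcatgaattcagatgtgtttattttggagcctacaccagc
The regions were chr6:85678704-85678783 (minus strand) for SNHG5, chr9:136728155-136728234 (minus strand) for SNHG7, chr4:118278712-118278791 (plus strand) for SNHG8, chr1:28581844-28581923 (minus strand) for SNHG12, chr11:62855856-62855935 (minus strand) for SNHG1 and chr1:173869016-173869095 (minus strand) for GAS5.

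TATAA stood in that window on the transcribed strand, the strand searched, in 4 of the 8 members, SNHG5, SNHG7, SNHG8 and SNHG12, against 3.91% of the 35116 RefSeq start regions. The letters were chosen after the sequences had been seen, so the share is a description. A run of at least 5 bases of C or T opened 2 of the 8 transcripts, SNHG5 with 5 bases and SNHG12 with 11 bases, against 5.17% of all entries. GAS5, SNHG3 and SNHG16 had no C or T at the annotated first base. SNHG3 and SNHG16, whose starts are not printed, also lacked TATAA in the window. The count table was made on build GRCh37, and no reads by position were used here, so the start used in SKOV3 was not measured.

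Libraries held 30132517 and 24571619 counts in the Rg3 group and 24482846 and 26731913 counts in the control group. Levels are given as CPM, counts scaled to a common library size with TMM factors, and they are not scaled to gene length, so a higher value of 1 gene than of another is not read as more RNA. Of 8 markers chosen for SKOV3, the epithelial keratins KRT8 and KRT18, the receptor genes ERBB2 and CD44 and the mucin gene MUC1 were detected in every library, PAX8 had 8 to 18 counts, and KRT19 and WFDC2 had at most 2. None was called. KRT18 was at 1557 and 2248 CPM in Rg3 libraries and at 2302 and 2817 CPM in controls (log2 fold change −0.43). MUC1 was at 2.95 and 2.28 CPM in Rg3 libraries and at 1.22 and 1.82 CPM in controls (log2 fold change 0.79). Neither overlapped between the groups. Thus 1 of 6 tested markers was above both controls in both Rg3 libraries and 1 below, beside 15.3% and 17% of all genes tested. The log2 fold changes of PAX8, CD44, KRT8 and ERBB2 were −0.66, 0.19, −0.15 and 0.0006. Of 10 markers of other cell types, 3 had enough counts to be tested and none was called. The endothelial cadherin gene CDH5 was at 16.2 CPM in both Rg3 libraries and at 17.9 and 19.5 CPM in controls. The collagen gene COL1A1 was at 4.68 and 1.62 CPM in Rg3 libraries and at 1.95 and 2.27 CPM in controls, and the endothelial gene VWF was at 0.55 and 0.29 CPM in Rg3 libraries and at 0.61 and 0.23 CPM in controls. The other 7 had at most 7 counts in a library, with CD3E and ALB at 0 in all 4. The part of these markers in the results was not tested. The Rg3 libraries stood further apart from each other than the controls did: chi-square over its degrees of freedom was 49.2 for the Rg3 pair and 10.03 for the control pair. Results are therefore also given without each Rg3 library where that matters.

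None of the 10 host RNAs passed the test of Rg3 against control. The hosts differed in the same direction between the Rg3 libraries instead. All 10 had their highest level in Rg3 replicate 2, the library that was highest for 33.2% of all genes tested. Of the 10, 8 had their lowest level in Rg3 replicate 1, which was lowest for 30% of all genes tested. Together the host RNAs took 0.0545% and 0.0669% of the counts in the Rg3 libraries and 0.0575% and 0.0578% in the controls. These are bulk samples, in which fewer cells with an RNA and less of it per cell cannot be told apart.

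**Figure D1:**
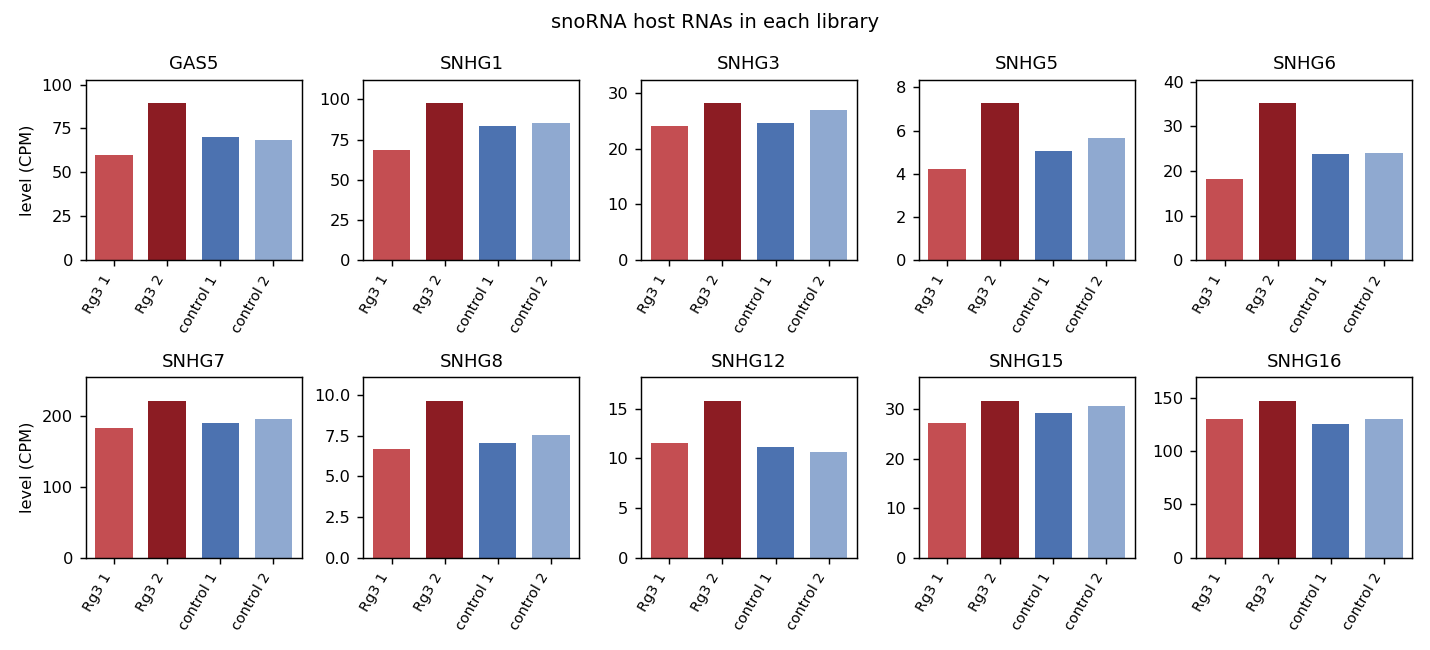
Level of each host RNA in CPM (vertical axes, each from 0) in the 2 Rg3 libraries (red) and the 2 control libraries (blue), 1 bar per library. Rg3 replicate 2 has the highest bar for all 10 host RNAs.

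GAS5, whose RNA accumulates in growth-arrested cells and which carries 10 box C/D snoRNAs with a row in the table, was at 60 and 89.4 CPM in Rg3 libraries and at 69.9 and 68.2 CPM in controls. One Rg3 library lay below both controls and the other above both. Its log2 fold change was 0.11 (SE 0.20, 95% interval −0.34 to 0.57), with an edgeR adjusted p of 0.999. SNHG1, the host of 8 box C/D snoRNAs, had the same shape, with 68.4 and 97.7 CPM in Rg3 libraries and 83.8 and 85.4 CPM in controls. Its log2 fold change was −0.03 (SE 0.18, 95% interval −0.46 to 0.40). The antisense gene GAS5-AS1, which overlaps GAS5, had 6 and 0 counts in Rg3 libraries and 1 and 0 in controls. ZBTB37, a protein-coding gene that also overlaps GAS5 in RefSeq, had 225 and 160 counts in Rg3 libraries and 207 and 189 in controls.

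SNHG6, the host of the box C/D snoRNA SNORD87, differed most between the Rg3 libraries, at 18.1 and 35.2 CPM, against 23.9 and 24.1 CPM in controls. On the log2 scale Rg3 replicate 1 minus Rg3 replicate 2 was −0.94, against −0.01 for control 1 minus control 2. The log2 fold change of 0.15 (SE 0.28) had a 95% interval of −0.51 to 0.81. SNHG5, the host of the U50 snoRNAs SNORD50A and SNORD50B, had the next widest gap, with 4.22 and 7.27 CPM in Rg3 libraries and 5.07 and 5.68 CPM in controls. It rested on 130 and 175 counts in Rg3 libraries and 125 and 150 in controls, and its log2 fold change of 0.09 (SE 0.29) had an interval of −0.58 to 0.76.

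SNHG12, which carries 3 H/ACA snoRNAs and 1 C/D snoRNA, had the largest fitted change of the 10. It was at 11.5 and 15.8 CPM in Rg3 libraries and at 11.2 and 10.6 CPM in controls, so the groups did not overlap. The log2 fold change was 0.32 (SE 0.20, 95% interval −0.15 to 0.80) and did not pass (edgeR adjusted p = 0.999). Leaving out Rg3 replicate 1 gave 0.54, and leaving out Rg3 replicate 2 gave 0.082. SNHG16, the host of SNORD1A, SNORD1B and SNORD1C, was at 130.3 and 147 CPM in Rg3 libraries and at 125.8 and 129.8 CPM in controls. Its groups did not overlap either, although Rg3 replicate 1 lay only just above control 2, and the log2 fold change was 0.12 (SE 0.14). Both Rg3 libraries were above both controls for 2 of the 10 hosts, and for 15.3% of all genes tested. The TRNAU1AP gene, which overlaps SNHG12 in RefSeq, had 607 and 576 counts in Rg3 libraries and 563 and 616 in controls, and the strand setting of the counting was not given.

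The other 4 host RNAs had log2 fold changes between −0.03 and 0.16. SNHG7, which carries the paired H/ACA snoRNAs SNORA17 and SNORA43, was at 183 and 221 CPM in Rg3 libraries and at 191 and 196 CPM in controls. SNHG8, the host of SNORA24, was at 6.69 and 9.63 CPM in Rg3 libraries and at 7.02 and 7.57 CPM in controls. Each had 1 Rg3 library below and 1 above both controls. SNHG15, the host of SNORA9, was at 27.1 and 31.6 CPM in Rg3 libraries and at 29.3 and 30.6 CPM in controls. SNHG3, the host of the U17 snoRNAs that act in cleavage of the ribosomal RNA precursor, was at 24.0 and 28.1 CPM in Rg3 libraries and at 24.6 and 26.8 CPM in controls. For SNHG3 and SNHG15 Rg3 replicate 1 minus Rg3 replicate 2 was −0.22 each on the log2 scale, and Rg3 replicate 1 lay below both controls and Rg3 replicate 2 above both. RCC1, which overlaps SNHG3 in RefSeq, had 3320 and 2384 counts in Rg3 libraries and 2393 and 2663 in controls, against 740 and 677, and 605 and 709, for SNHG3.

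**Figure D2:**
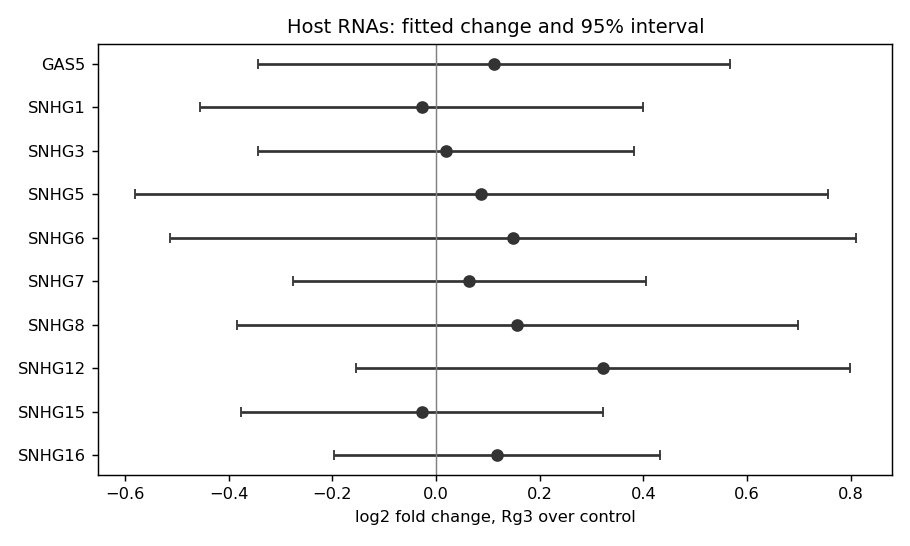
Fitted log2 fold change of each host RNA, Rg3 over control (horizontal axis), with its 95% interval, from 2 libraries per group. All 10 intervals include 0, and the point of SNHG12 lies furthest right at 0.32.

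In edgeR's quasi-likelihood test 0 of 10 host RNAs were called, where 5 of 16323 genes (0.0306%) were called in all. At an unadjusted p under 0.05, 0 hosts were higher and 0 lower, against 1.83% and 2.9% of all genes tested. DESeq2 and limma voom called 0 of the 10 as well. The median log2 fold change over the hosts was 0.10, beside 0.01 over all genes tested, and 8 of 10 were above 0, where 52.5% of all genes were. Without Rg3 replicate 1 all 10 were above 0 with a median of 0.29, and without Rg3 replicate 2 only SNHG12 and SNHG16 were above 0 with a median of −0.13. Without Rg3 replicate 1, GAS5 (log2 fold change 0.38, adjusted p = 0.0483) and SNHG6 (0.56, adjusted p = 0.0186) were called higher, in a fit that called 5.22% of all genes and takes the lone Rg3 library to vary as the controls do. Without Rg3 replicate 2 none was called, in a fit that called 2.68% of all genes.

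The snoRNAs carried by these genes showed a different picture, in which box C/D snoRNAs lay below the control mean in both Rg3 libraries, although none was called. RefSeq placed 36 snoRNA genes inside the 10 hosts, of which 34 had a row of their own, 25 of them box C/D and 9 box H/ACA. All 34 passed the low count filter. Of the 25 box C/D snoRNAs, 10 lie in GAS5 and 8 in SNHG1, so they are not 25 independent observations. All 25 box C/D snoRNAs had log2 fold changes below 0, between −0.70 and −0.24, and their median was −0.48. For 23 of the 25 both Rg3 libraries lay below both controls, which held for 17% of all genes tested. The 9 H/ACA snoRNAs ran from −0.16 to 0.10 with a median of −0.06, and 2 of them had both Rg3 libraries below both controls.

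None of the 34 snoRNAs was called, and the smallest adjusted p was 0.603. At an unadjusted p under 0.05 there were 12 lower, all of them box C/D, and 0 higher, where 2.9% and 1.83% of all genes passed. Many snoRNA rows outside these hosts were lower too. At that level 33 of 154 tested box C/D rows and 10 of 87 tested H/ACA rows elsewhere were lower, and 0 were higher. SNORD87 inside SNHG6 was at 50 and 41.9 CPM in Rg3 libraries and at 77.7 and 67.4 CPM in controls (log2 fold change −0.66, SE 0.15, edgeR adjusted p = 0.603). SNORD29 inside SNHG1, chosen after its value was seen, was at 35.0 and 29.3 CPM in Rg3 libraries and at 47.3 and 57.0 CPM in controls (log2 fold change −0.70, SE 0.16, edgeR adjusted p = 0.603). Neither snoRNA overlapped between the groups, in contrast to SNHG6 and SNHG1, the RNAs of the same genes.

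Some other settings of edgeR called part of these snoRNAs. Without a low count filter SNORD87, SNORD81, SNORD27 and SNORD29 were called lower, where 0.834% of all genes were called. With the replicate number as a block the same 4 and SNORD50B were called lower, where 0.95% were called. Without Rg3 replicate 1, 20 were called lower, and the U17 snoRNA rows SNORA73A and RNU105A, an older symbol of SNORA73B, were called higher, where 5.22% of all genes were called. Without Rg3 replicate 2, 3 were called lower, SNORD87, SNORD29 and SNORA73A, where 2.68% were called. The sign of SNORA73A thus depended on which Rg3 library was kept, and near-identical copies make the split of reads between the U17 rows uncertain. All 25 box C/D snoRNAs stayed below 0 in every one of the 10 other fits, and their median was −0.68 when Rg3 replicate 1 was left out and −0.26 when Rg3 replicate 2 was.

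The snoRNA row with the highest CPM in each host is given next, box C/D before H/ACA, a choice that takes no account of length. SNORD76 in GAS5 was at 160.8 and 129.7 CPM in Rg3 libraries and at 214.5 and 200.9 CPM in controls. SNORD22 in SNHG1 was at 304.9 and 338.8 CPM in Rg3 libraries and at 390.2 and 387.4 CPM in controls. Both lay below the controls in both Rg3 libraries, and SNORD22 was the 1 box C/D snoRNA of 25 that was not lowest in Rg3 replicate 2. SNORD50B in SNHG5 was at 24.2 and 16.7 CPM in Rg3 libraries and at 30.2 and 34.7 CPM in controls. SNORD1C in SNHG16 was at 22.6 and 13.0 CPM in Rg3 libraries and at 25.4 and 22.7 CPM in controls, with Rg3 replicate 1 next to control 2.

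SNORA44 in SNHG12 was at 357.5 and 437.7 CPM in Rg3 libraries and at 413.1 and 389.2 CPM in controls. SNORA43 in SNHG7 was at 117 and 151 CPM in Rg3 libraries and at 121 and 134 CPM in controls, and SNORA43 and SNORA17 are close copies that can share reads. Both snoRNAs had their highest level in Rg3 replicate 2, as did 5 of the 9. SNORA9 in SNHG15 was at 217 and 208 CPM in Rg3 libraries and at 218 and 243 CPM in controls. Each Rg3 library lay below both controls, although Rg3 replicate 1 lay only just below control 1. SNORA24 in SNHG8 was at 45.9 and 55.6 CPM in Rg3 libraries and at 50.6 and 55.0 CPM in controls. RNU105A in SNHG3 was at 1650 and 2846 CPM in Rg3 libraries and at 1911 and 2284 CPM in controls, spread like the hosts with Rg3 replicate 1 lowest and Rg3 replicate 2 highest.

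**Figure D3:**
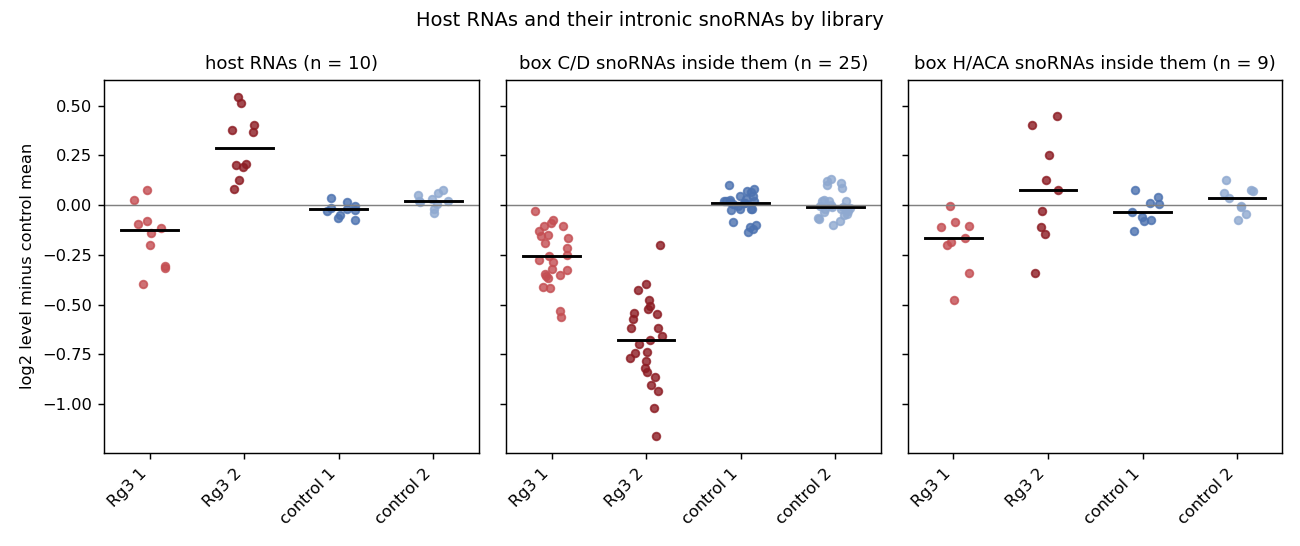
Level of each RNA in each library as log2(CPM + 0.5) minus the mean of the 2 controls (vertical axis), for the 10 host RNAs, the 25 box C/D and the 9 box H/ACA snoRNAs inside them; points are RNAs and black lines medians. In Rg3 replicate 2 the host median lies at 0.29 and the box C/D median at −0.68.

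Relative to the control mean, the host RNAs had a median of −0.13 in Rg3 replicate 1 and 0.29 in Rg3 replicate 2. The box C/D snoRNAs inside them had medians of −0.26 and −0.68 in the same libraries, and the H/ACA snoRNAs −0.17 and 0.07. Of 154 box C/D rows elsewhere in the table that were tested, 135 were below 0, the median log2 fold change was −0.31, and 96 had both Rg3 libraries below both controls. Of 87 H/ACA rows elsewhere, 76 were negative, with a median of −0.15, and 41 lay below both controls in both Rg3 libraries. Over all genes tested, 7750 of 16323 were below 0 and 17% had both Rg3 libraries below both controls. All box C/D rows together took 12.7% and 14.4% of the counts in Rg3 libraries and 14.0% and 13.5% in controls, and without the SNORD3 rows 1.05% and 1.10% in Rg3 libraries and 1.22% and 1.23% in controls.

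The host RNA and its snoRNAs come from 1 precursor, so the difference between their log2 levels was compared within each library. For each host this was log2(CPM + 0.5) of the host minus the mean of the same over its snoRNAs. All 10 hosts were highest, and 24 of the 25 box C/D snoRNAs lowest, in Rg3 replicate 2. The order of this difference was thus largely set by those levels. The difference was highest in Rg3 replicate 2 for 9 of the 10 hosts, all but SNHG3. For GAS5 it was 0.30 and 1.38 in Rg3 libraries and 0.30 and 0.26 in controls, so that Rg3 replicate 1 lay beside the controls and Rg3 replicate 2 stood 1.11 above their mean. For SNHG6 it was −1.44 and −0.25 in Rg3 libraries and −1.68 and −1.47 in controls. For SNHG7, whose snoRNAs are H/ACA, it was 1.41 and 1.47 in Rg3 libraries and 1.36 and 1.41 in controls, a difference between group means of 0.06.

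**Figure D4:**
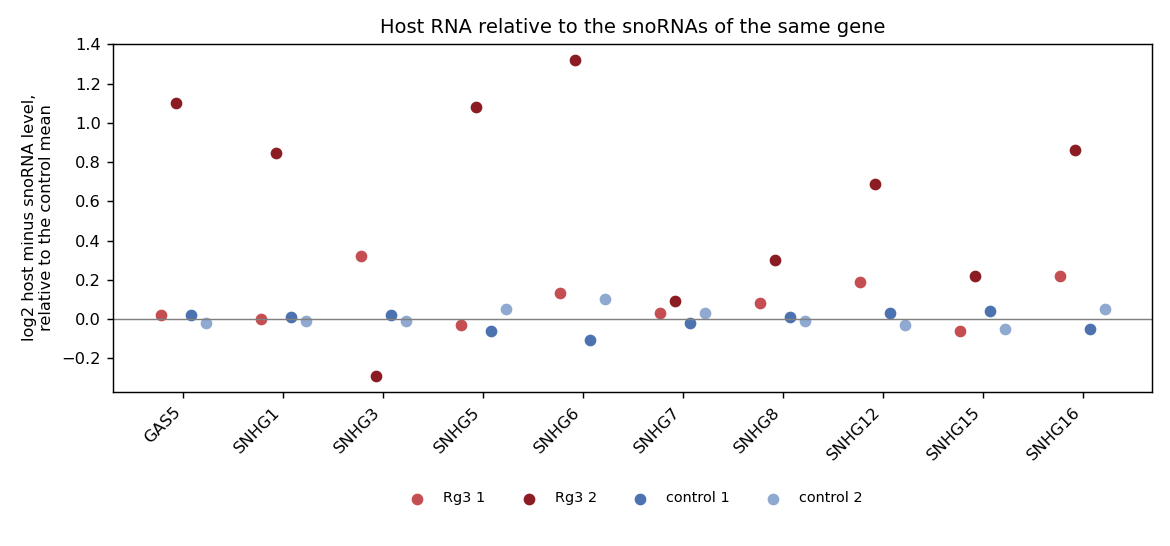
Log2 level of each host RNA minus the mean log2 level of its snoRNAs, relative to the mean of the 2 controls (vertical axis), with 1 point per library. Rg3 replicate 2 is the highest point for every host except SNHG3, and stands 1.33 above the control mean for SNHG6.

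The Rg3 minus control difference of this measure ran from 0.01 for SNHG3 to 0.73 for SNHG6, with a median of 0.43. A two-sided exact permutation test over the 4 libraries gave p = 0.333 for SNHG6, GAS5, SNHG16, SNHG12, SNHG8 and SNHG7, the smallest p this design allows, and larger p for the others. Without Rg3 replicate 2 the median was 0.06, and without Rg3 replicate 1 it was 0.77. Of the 10 host rows, 8 held fewer counts than the snoRNA rows inside them in every library. Those of SNHG7 and SNHG16 held more, and how the authors' counting shared reads between a host and its snoRNAs was not given.

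No gene of the related lists was called. Of the 12 further non-coding hosts listed, 11 had a row and 10 were tested, with 0 called and a median log2 fold change of 0.08. DANCR was at 39.0 and 46.5 CPM in Rg3 libraries and at 35.8 and 39.1 CPM in controls, and SNHG4 was at 6.72 and 7.43 CPM in Rg3 libraries and at 8.20 and 8.02 CPM in controls. EPB41L4A-AS1 and LINC00338, the older symbol of SNHG20, had log2 fold changes of 0.11 and −0.11. Of 28 protein-coding hosts outside the ribosomal proteins 0 were called, with a median of 0.06. EIF4G2, a translation initiation factor homologue, was at 1842 and 2209 CPM in Rg3 libraries and at 1708 and 1731 CPM in controls, with groups that did not overlap. Of the 28, both Rg3 libraries were above both controls for 6 and below both for 2, beside 15.3% and 17% of all genes tested. MRPL3, TCP1 and EEF1B2 had log2 fold changes of 0.19, 0.20 and −0.21.

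Proteins that bind snoRNAs were measured because they form the particle with them. Of 8 core snoRNP proteins 0 were called, 7 had a positive log2 fold change and 5 had both Rg3 libraries above both controls, where 52.5% and 15.3% of all genes tested did. The median was 0.11. NOP58, which binds box C/D snoRNAs, was at 83.8 and 92.3 CPM in Rg3 libraries and at 75.8 and 78.9 CPM in controls. DKC1, the pseudouridine synthase of H/ACA particles, was at 131 and 146 CPM in Rg3 libraries and at 122 CPM in both controls. GAR1 and NOP56 had log2 fold changes of 0.39 and 0.12, and GAR1 was at 2.95 and 3.99 CPM in Rg3 libraries and at 2.35 and 2.91 CPM in controls.

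Nonsense-mediated decay factors and regulators of growth-linked translation were listed because such proteins can act on host RNAs. Whether they had a part in the host levels here was not tested. Of 14 decay factors 0 were called, with a median of 0.13. SMG1, the kinase of the pathway, was at 115 and 79.7 CPM in Rg3 libraries and at 88.4 and 78.9 CPM in controls, and MAGOH, SMG8 and EIF4A3 had log2 fold changes of 0.21, 0.20 and 0.18. Relative to the control mean the decay factors had medians of 0.21 in Rg3 replicate 1 and −0.06 in Rg3 replicate 2, an order opposite to that of the hosts. The list was mixed, with 11 of 14 above the control mean in Rg3 replicate 1 and 5 in Rg3 replicate 2. SMG1 was higher in Rg3 replicate 1, while MAGOH, SMG8 and EIF4A3 were higher in Rg3 replicate 2, like the hosts. Of 11 regulators 0 were called, with a median of 0.07. Relative to the control mean the regulators had medians of 0.10 in Rg3 replicate 1 and −0.14 in Rg3 replicate 2, also opposite to the hosts. That list was mixed as well, with 10 of 11 above the control mean in Rg3 replicate 1 and 4 in Rg3 replicate 2. MYC, a transcription factor of growth genes, was at 201 and 144 CPM in Rg3 libraries and at 179 and 196 CPM in controls, and TIAL1, PABPC1 and RPS6KB1 had log2 fold changes of 0.14, 0.21 and 0.09.

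Ribosomal protein mRNAs, which share the pyrimidine-rich start with many hosts, had 0 of 78 tested genes called and a median of −0.003. Their medians relative to the control mean were −0.20 in Rg3 replicate 1 and 0.19 in Rg3 replicate 2, the same order as the hosts. The further non-coding hosts (−0.10 and 0.12) and the protein-coding hosts (−0.06 and 0.12) had that order too. What sets this order was not tested. RPS26 had the smallest p, at 10.0 and 14.9 CPM in Rg3 libraries and 18.2 and 18.9 CPM in controls (log2 fold change −0.58, edgeR adjusted p = 0.999). RPL13A, RPS27L and RPL37 had log2 fold changes of −0.32, −0.29 and −0.25.

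**Figure D5:**
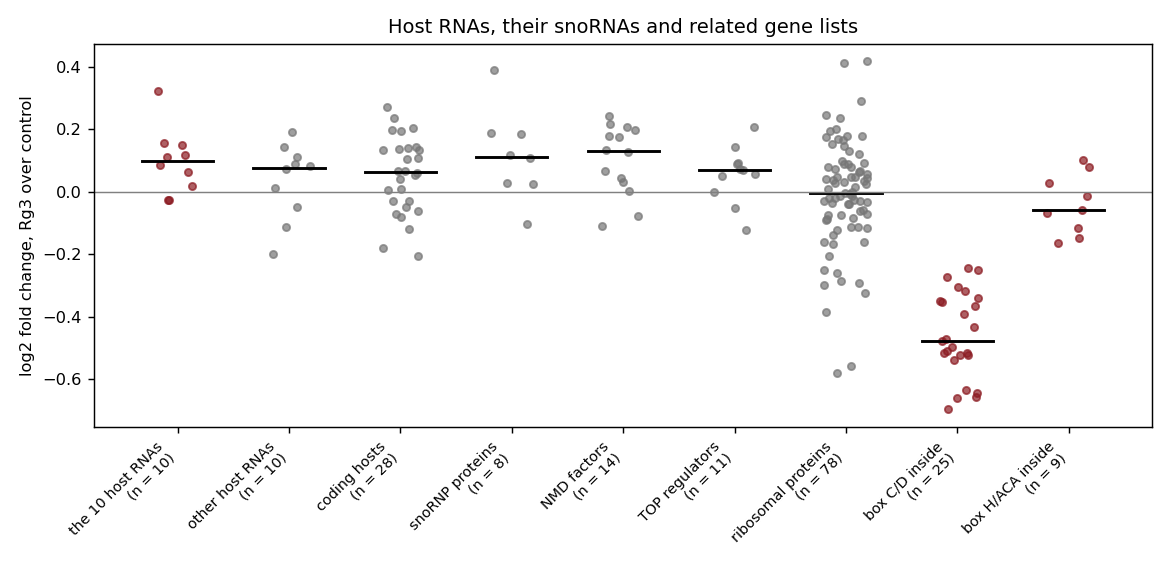
Fitted log2 fold change, Rg3 over control (vertical axis), of every tested gene in each list; points are genes and black lines medians. The host RNAs have a median of 0.10 and the box C/D snoRNAs inside them a median of −0.48, with all 25 below 0.

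The genes with the profile most like the hosts were found by the root mean square difference of centred log2 levels over the 4 libraries, from the mean profile of the 8 hosts with at least 10 CPM. Among 8759 other genes the nearest were PPA2, a mitochondrial pyrophosphatase, SNX14, a sorting nexin, and POLR2L, a small RNA polymerase subunit, at 0.003, 0.004 and 0.006 log2 units. PPA2 was at 45.2 and 60.7 CPM in Rg3 libraries and at 49.3 and 50.1 CPM in controls. The match rests on 4 libraries and is a description only.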

How the data were processed

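RNA was measured in 2 Rg3 and 2 control libraries of SKOV3 cells. Per the labels' protocols, total RNA was taken with TRIzol, ribosomal RNA was depleted before library construction. The authors deposited 1 table of raw counts per gene symbol. The build was GRCh37, per the submitters' processing notes, while aligner, counter, annotation and strandedness are not given in the sources used here. The series text and the protocol name different sequencing platforms.

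The analysis ran in edgeR 4.0.16 under R 4.3.3, with filterByExpr (minimum count 10, minimum total 15), TMM scaling with factors from 0.981 to 1.02, and a quasi-likelihood fit of treatment alone, on all 16323 genes kept, with Benjamini-Hochberg adjustment at 0.05. Genes numbering 14537 had no count. DESeq2 1.42.0, limma voom (limma 3.58.1), other scalings, no low count filter, a replicate block and leaving out each library were the alternatives. Standard errors and 95% intervals came from the F statistic. A pseudocount of 0.5 CPM was used where logs of single libraries are given.

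The snoRNAs of each host were those RefSeq (GRCh38.p14, names and neighbourhood only) places inside it, without regard to strand, matched by current or older symbol. The members and lists were chosen with earlier results of these data known. Named were all members, the snoRNA with the highest mean CPM in each host, up to 4 genes of each related list with the smallest p, and the 3 genes nearest in profile. Cell type markers stand outside this rule and are all accounted for. Other exceptions are marked or sit among calls of alternative fits.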

Additional observations from a re-analysis of the deposited data

How the results depend on the processing

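The count of host RNAs called was 0 in every fit except the one without Rg3 replicate 1, so over the fits that left out 1 library it ran from 0 to 2. Over the same fits the log2 fold change ran from −0.20 to 0.38 for GAS5, −0.31 to 0.21 for SNHG1, −0.096 to 0.13 for SNHG3, −0.35 to 0.44 for SNHG5, −0.40 to 0.56 for SNHG6, −0.077 to 0.20 for SNHG7, −0.13 to 0.40 for SNHG8 and −0.14 to 0.084 for SNHG15, each with a change of sign. SNHG12, from 0.082 to 0.54, and SNHG16, from 0.029 to 0.21, were above 0 in all 10 other fits, both lowest without Rg3 replicate 2. The count of snoRNAs called was 4 with no low count filter, 5 with the replicate block, and 0 to 22 over the fits that left out 1 library. Genes called in the whole table numbered 214 with no filter, 54 with DESeq2, 155 with the replicate block, and 49 to 884 with 1 library left out. Those last fits called 0 to 4 coding hosts, 0 to 1 decay factors, 0 to 1 regulators and 0 to 12 ribosomal protein genes. The host minus snoRNA difference of SNHG3 ran from −0.30 to 0.31 and was −0.0077 with summed snoRNA counts. That of SNHG5 ran from −0.032 to 1.08 and that of SNHG15 from −0.053 to 0.22. The cause was not tested.

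The replicate numbers name samples and no label ties them. Across genes, deviations of Rg3 replicate 1 and control 1 from their group means had r = 0.213, and the replicate block called no host. Scaling within edgeR by relative log expression (RLE) factors, or without structured RNA, left 5 calls in the table and 0 among hosts and snoRNAs. With 2 libraries a group the intervals of all 10 hosts include 0, and SNHG5 and SNHG6 have the widest, with SEs of 0.29 and 0.28.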
